A study of Rattus norvegicus with 6 samples.

Results

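Interferon response genes were examined in primary rat brain microvascular endothelial cells (rBMECs), the cells that line brain capillaries and form the blood-brain barrier, after exposure to homocysteine (Hcy), a sulfur amino acid formed from methionine. The set is a list of gene names, drawn up with earlier results of these data known. It holds 36 genes, and all 36 were found among the 33566 genes of the deposited count table. The cells were isolated from the cerebral cortex of Sprague-Dawley rats aged 18 to 22 days and used after one passage. Cortex is the wording of the growth protocol in the labels, and the paper's methods name the cerebral forebrain. One group received 100 μM Hcy for 24 h (the Hcy group, n = 3 libraries), and the other received water alone as vehicle (the Veh group, n = 3 libraries). The treatment text also names a prepared Hcy solution of 50 μM, so the dose is given as the sample labels state it. The labels give no other genotype, strain or agent that differed between the groups. The libraries were made from poly(A) RNA, and the study calls them biological replicates. It is not stated whether each came from a separate isolation of cells, so the p-values measure the spread between these libraries.

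Interferons are secreted proteins that warn cells of infection. RNA sensors such as RIG-I and MDA5 detect foreign RNA and switch on interferon genes through Irf3 and Irf7. Type I interferon then binds the receptor formed by Ifnar1 and Ifnar2, and the kinases Jak1 and Tyk2 pass the signal to transcription factors, among them Stat2 and Irf9, which act in a complex that binds a DNA element called the ISRE. Interferon-γ acts through another element, GAS. The genes switched on include antiviral enzymes, guanylate-binding proteins and the ubiquitin-like protein Isg15, and endothelial cells can run this programme. The comparison of Hcy with Veh asks which of these genes differed in transcript level after 24 h of Hcy.

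Of the 36 genes, 5 rose under Hcy and none fell at an edgeR adjusted p of 0.05 or less (13.9%, against 2.34% of all tested genes). Those that rose were the antiviral effectors Rsad2, Ifit1 and Oasl and the guanylate-binding protein genes Gbp2 and Gbp5. At an unadjusted p of 0.05, 9 genes were higher (25%, against 7.44% of all tested genes). At that p, 4 genes, Irf7, Irf8, Usp18 and Dtx3l, were lower (11.1%, against 5.95%). With DESeq2, Irf8 (lower) and Oasl2 (higher) passed the adjusted p too, 7 of 36 in all, against 4.19% of all tested genes. With 1 library left out, 2 to 10 of the 36 passed the edgeR adjusted p (10 without Veh 3, against 6.67% of all genes). The other omissions gave 2 to 4, against 0.557% to 1.05% of all genes. In the fit of all 6 libraries, Rsad2 and Ifit1 also passed the second criterion the study used. It was a log2 fold change of 1 or more in either direction. The receptor and RNA sensor genes gave no call, nor did the transcription factor genes or the Isg15 and ADP-ribosylation genes, and their values are given below by group.

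The promoters of 7 genes are shown because these genes had the smallest p-values, in either direction, among those with a sequence in the RefSeq table. Each runs from 250 bases before to 50 bases after the annotated start in the rat build GRCr8, 5′ to 3′ on the strand of the gene. Capitals mark each match to the ISRE core (GAAA, any 2 bases and GAAA again, searched on both strands) or to the GAS core TTCNNNGAA, whose form reads alike on both strands. Positions count from the start site.
Rsad2, chr6:48788071-48788370, minus strand, with an ISRE core from -147 to -138: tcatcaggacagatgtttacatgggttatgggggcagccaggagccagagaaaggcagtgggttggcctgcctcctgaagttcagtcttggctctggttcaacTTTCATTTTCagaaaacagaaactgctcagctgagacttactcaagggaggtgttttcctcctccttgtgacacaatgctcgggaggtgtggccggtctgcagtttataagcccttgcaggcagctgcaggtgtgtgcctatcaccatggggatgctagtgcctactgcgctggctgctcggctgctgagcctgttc
Gbp2, chr2:234005477-234005776, plus strand, with an ISRE core from -31 to -22: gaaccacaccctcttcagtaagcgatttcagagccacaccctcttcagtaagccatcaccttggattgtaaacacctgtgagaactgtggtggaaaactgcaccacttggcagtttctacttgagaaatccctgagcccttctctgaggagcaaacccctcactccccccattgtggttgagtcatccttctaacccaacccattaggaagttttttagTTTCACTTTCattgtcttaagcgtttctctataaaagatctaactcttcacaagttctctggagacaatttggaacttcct
Gbp5, chr2:233910749-233911048, plus strand, with an ISRE core from -56 to -47: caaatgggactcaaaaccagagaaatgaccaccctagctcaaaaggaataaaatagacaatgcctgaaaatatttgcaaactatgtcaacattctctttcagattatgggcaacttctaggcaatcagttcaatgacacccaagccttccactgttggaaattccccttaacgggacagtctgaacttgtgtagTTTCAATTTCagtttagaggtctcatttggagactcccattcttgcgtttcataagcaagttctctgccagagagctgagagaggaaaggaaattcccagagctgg
Oasl, chr12:47356243-47356542, minus strand, with neither core: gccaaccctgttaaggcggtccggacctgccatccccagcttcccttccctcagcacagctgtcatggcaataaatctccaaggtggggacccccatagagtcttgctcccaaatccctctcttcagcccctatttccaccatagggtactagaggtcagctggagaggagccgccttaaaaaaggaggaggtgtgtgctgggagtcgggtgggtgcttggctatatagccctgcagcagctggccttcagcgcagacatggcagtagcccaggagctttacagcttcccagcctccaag
Oasl2, chr12:47383136-47383435, minus strand, with an ISRE core from -151 to -142: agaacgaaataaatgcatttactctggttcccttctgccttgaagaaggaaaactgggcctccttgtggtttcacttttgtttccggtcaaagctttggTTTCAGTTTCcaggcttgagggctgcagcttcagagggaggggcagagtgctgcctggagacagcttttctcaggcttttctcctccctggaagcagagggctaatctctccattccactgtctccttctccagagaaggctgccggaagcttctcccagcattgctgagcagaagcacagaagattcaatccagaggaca
Irf7, chr1:205799974-205800273, minus strand, with an ISRE core from -69 to -60: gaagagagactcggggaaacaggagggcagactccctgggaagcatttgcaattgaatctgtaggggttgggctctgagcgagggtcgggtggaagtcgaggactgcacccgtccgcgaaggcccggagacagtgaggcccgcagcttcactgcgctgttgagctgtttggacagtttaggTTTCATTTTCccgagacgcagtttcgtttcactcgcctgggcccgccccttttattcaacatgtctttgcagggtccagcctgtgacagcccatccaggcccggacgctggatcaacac
Irf8, chr19:65699034-65699333, plus strand, with GAS cores from -180 to -172 and from -161 to -153: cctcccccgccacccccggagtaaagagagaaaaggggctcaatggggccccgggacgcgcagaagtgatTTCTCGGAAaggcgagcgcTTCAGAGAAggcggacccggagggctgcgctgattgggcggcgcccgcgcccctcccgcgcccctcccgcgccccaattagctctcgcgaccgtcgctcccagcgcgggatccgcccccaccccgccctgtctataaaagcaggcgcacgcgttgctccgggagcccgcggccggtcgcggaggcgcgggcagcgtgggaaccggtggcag

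Promoter sequences were matched for 28 of the 36 genes. Those without an entry were Ddx58, Dhx58, Irf2, Ifit1, Ifit2, Mx2, Isg15 and Usp18. The ISRE core occurred in 15 of the 28 windows (53.6%) and in 1049 of 27457 rat promoters of the same length (3.82%). The GAS core occurred in 7 of the 28 (25%) and in 2384 of all promoters (8.68%). A match describes the letters in the window and is not a measured binding site. The ISRE core was present in genes that rose, such as Gbp2 and Rsad2, in Irf7, whose level was lower under Hcy, and in genes whose groups overlapped, such as Oas1a, Eif2ak2, Ifi27, Ifi44 and Xaf1. Bst2 and Oas1a each held a pair of overlapping ISRE cores, and in Bst2 the GAS core overlapped the first of them.

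**Figure D1:**
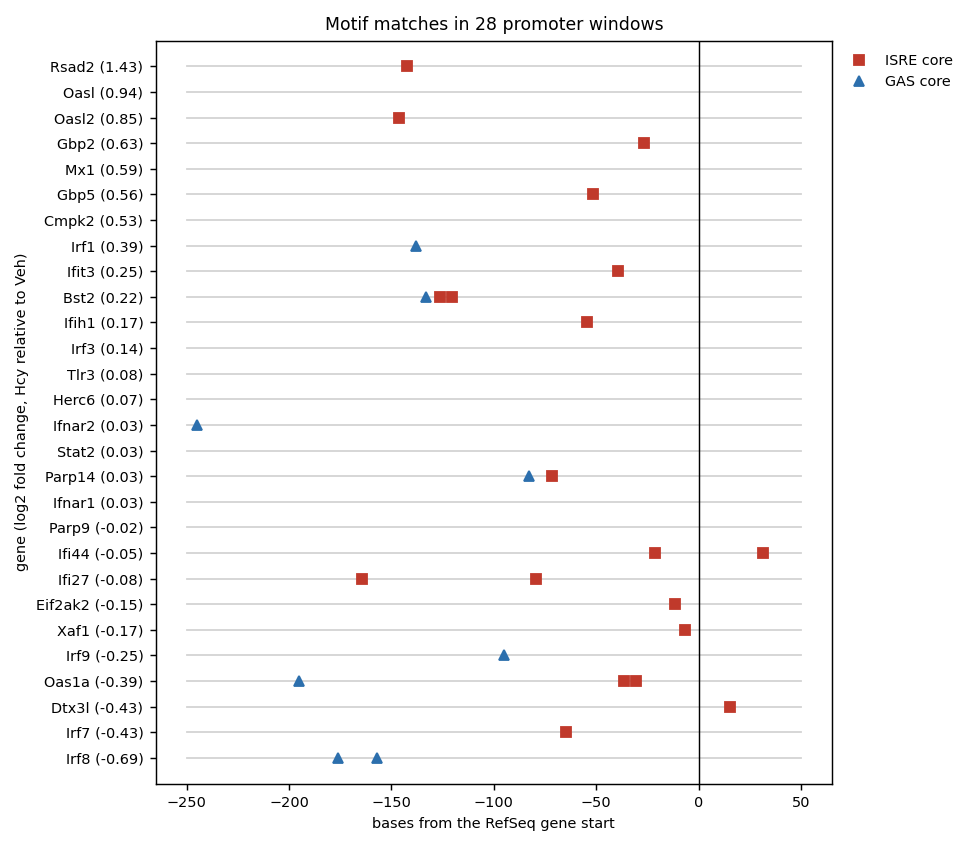
Positions of ISRE core (GAAA, any 2 bases, GAAA) and GAS core (TTCNNNGAA) matches, in bases from the annotated start site, in the 28 available promoter windows, with 1 line per gene. ISRE matches lay between -169 and +36, and 15 genes held at least 1.

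The libraries held 14024997 to 16764584 counts. After the removal of genes with fewer than 10 counts in all, 14603 genes were tested. The Hcy and Veh libraries separated on the first principal component (31.6% of the variance). Veh 3 stood apart on the second (29.3%), at 24.6 against -12.9 and -15.6 for the other Veh libraries, and it was the highest library in 25.6% and the lowest in 23.5% of tested genes. Among the interferon genes Veh 3 was the lowest library in 10 and the highest in 4. Endothelial marker genes summed to 10092 to 10532 CPM (the counts of a gene relative to its library's total, scaled by TMM) in Hcy and 8687 to 10161 in Veh. Without Vwf, the most abundant of them, the sums overlapped, at 7234 to 7592 CPM in Hcy and 6711 to 7628 CPM in Veh. Of the other 10 genes, 6 had a higher and 3 a lower Hcy mean, and 0 endothelial markers passed the adjusted p. Of 12 endothelial markers 11 were in the table, and Pecam1 was the name not found. Cldn5, a tight junction gene that defines brain endothelium, had 0 counts in all 6 libraries. The paper, however, shows Claudin-5 protein in rBMECs by Western blot, and it checked the purity of the cells by CD31 staining. The reason for the 0 counts was not tested. Microglia and macrophage markers summed to 2.22 to 3.09 CPM in Hcy and 2.32 to 2.74 CPM in Veh, with Ptprc, Cx3cr1, P2ry12, C1qb and Tyrobp among 11 markers at 0 counts. Without Cd68, the most abundant of them, the sums were 0.862 to 1.37 CPM in Hcy and 1.47 to 2.08 CPM in Veh. Of these 10 genes, 5 had a lower Hcy mean and 0 a higher one, all on low counts (C1qa had 1 count, in Veh 3). Cd68 itself went the other way, with a higher Hcy mean (log2 fold change 0.74, edgeR adjusted p = 0.522). Of the 4 microglia and macrophage markers that could be tested, 0 passed the adjusted p. Pericyte and mural markers summed to 95.9 to 109 CPM in Hcy and 127 to 170 CPM in Veh, and 1 of these 8 genes, Acta2, was lower (log2 fold change -0.64, edgeR adjusted p = 0.0248). Acta2 made up most of that sum. The other 7 summed to 5.13 to 7.93 CPM in Hcy and 3.82 to 4.57 CPM in Veh, with 6 of them higher in Hcy and none called. Fibroblast markers summed to 35.7 to 57.8 CPM against 57.5 to 83.9 CPM, nearly all of it Col1a1 (edgeR adjusted p = 0.264), and the other 3 summed to 1.48 to 2.27 CPM in Hcy and 1.19 to 1.94 CPM in Veh. The part of these differences in the interferon gene results was not tested, and fewer cells of a type and less RNA per cell cannot be told apart in bulk libraries.

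The interferon genes spanned a wide range of levels. Per kilobase of transcript, averaged over the 6 libraries, Ifi27 was highest at 429 CPM per kb, followed by Gbp2 at 232, Bst2 at 55.5, Ifit2 at 55.0 and Gbp5 at 51.5. The lowest were Mx1 at 0.0955 and Mx2 at 0.694 CPM per kb. By CPM, 5 genes averaged above 100, 17 lay between 10 and 100, 13 between 1 and 10 and 1 below 1. Summed over the 36 genes, levels were 2294, 2270 and 2298 CPM in the Hcy libraries and 1885, 1887 and 2001 CPM in the Veh libraries. Gbp2 alone made up 29.6% to 31.6% of that sum in Hcy and 22.6% to 24.8% in Veh. Without Gbp2 and Ifi27, the sums were 1228, 1262 and 1276 CPM in Hcy and 1133, 1144 and 1083 CPM in Veh. The sum thus followed few abundant genes. The median coefficient of variation of a gene between replicate libraries was 10.2% in Hcy and 13.3% in Veh.

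Counted over the whole set, 2 of 36 genes (5.56%) passed both criteria, against 0.486% of all tested genes (0.253% higher and 0.233% lower). At the adjusted p alone, 5 of 36 (13.9%) passed, all higher in Hcy, against 2.34% of all genes (1.32% higher and 1.01% lower). With 1 library left out, 2 to 10 passed. The 10, without Veh 3, held 9 higher genes and Irf8 lower, against 6.67% of all genes. The other omissions gave 2 to 4, against 0.557% to 1.05% of all genes. With all libraries, at an unadjusted p of 0.05, the count was 13 of 36 (36.1%), 9 higher and 4 lower. The shares of all genes were 13.4% in either direction, 7.44% higher and 5.95% lower. Hcy exceeded Veh in 25 genes (69.4%, against 46.9% of all tested genes) and lay below it in 11. Ifnar1, Ifnar2, Tlr3, Dhx58, Stat2, Mx1, Herc6, Parp9, Parp14, Ifi27 and Ifi44 changed sign when 1 library was left out. In 11 genes (30.6%) every Hcy library lay above every Veh library, against 10.8% of all genes. In 4 genes, Irf7, Irf8, Usp18 and Dtx3l (11.1%), every Hcy library lay below every Veh library, against 9.27% of all genes. The groups were thus apart in 15 of 36 (41.7%), against 20.1% of all genes. The median log2 fold change was 0.11 over the 36 genes and -0.02 over all tested genes.

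**Figure D2:**
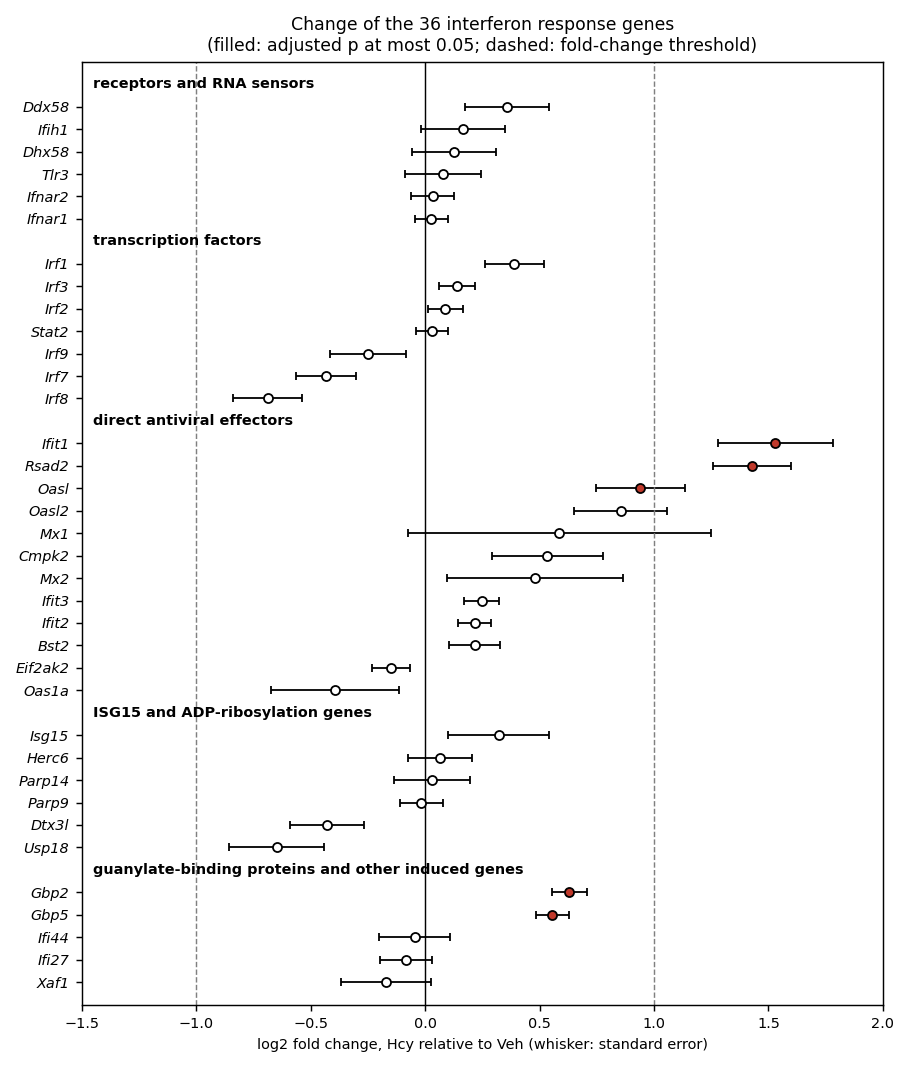
Log2 fold change of Hcy over Veh for the 36 genes, grouped by role, with bars of ± 1 standard error from edgeR. Ifit1 at 1.53 and Rsad2 at 1.43 lie farthest to the right, and Irf8 at -0.69 and Usp18 at -0.65 farthest to the left.

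Receptors and RNA sensors. The 6 genes of this group gave no call with edgeR or DESeq2 and none at an unadjusted p of 0.05, and their log2 fold changes were 0.03 to 0.36 (6 of 6 above 0, against 46.9% of all tested genes). Ifnar1, Ifnar2, Tlr3 and Dhx58 changed sign when 1 library was left out, so 4 of these 6 had no stable direction. Ifnar1, the signalling chain of the type I interferon receptor, stood at 149, 150 and 156 CPM in Hcy and 153, 155 and 139 CPM in Veh. The groups overlapped, with Veh 3 the lowest library (log2 fold change 0.03 ± 0.07 SE, edgeR adjusted p = 0.927). Ifnar2, the high-affinity chain, was at 28.2, 28.9 and 28.3 CPM in Hcy and 28.1, 30.3 and 25.2 CPM in Veh. Its groups overlapped as well (0.03 ± 0.10, edgeR adjusted p = 0.932). Ddx58, which encodes the RNA sensor RIG-I, was at 8.26, 10.6 and 8.06 CPM in Hcy and 7.54, 7.84 and 5.61 CPM in Veh. All Hcy libraries were above all Veh libraries, but the closest were near each other and the difference was not called (0.36 ± 0.18, edgeR adjusted p = 0.465). Ifih1, which encodes the sensor MDA5, was at 15.7, 22.7 and 19.4 CPM in Hcy and 19.2, 19.2 and 13.1 CPM in Veh, an overlap (0.17 ± 0.18, edgeR adjusted p = 0.776). The groups also overlapped for Tlr3, an endosomal receptor for double-stranded RNA, and for Dhx58, which modulates RIG-I and MDA5. Their log2 fold changes were 0.08 and 0.13.

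Transcription factors. None of the 7 genes passed in the main edgeR fit. Irf8 passed the adjusted p with DESeq2 and under some edgeR alternatives given below. At an unadjusted p of 0.05 or less, 3 passed (42.9%, against 13.4% of all tested genes), Irf1 higher and Irf7 and Irf8 lower in Hcy. Irf8, an interferon regulatory factor best known from myeloid and B cells, was at 9.91, 11.2 and 8.12 CPM in Hcy and 17.7, 14.5 and 14.7 CPM in Veh. Every Hcy library lay below every Veh library. The means were 9.73 ± 1.52 CPM (SD, n = 3) and 15.7 ± 1.77 CPM, and the log2 fold change was -0.69 ± 0.15 (edgeR adjusted p = 0.0535). This lies just beyond the threshold. DESeq2 on the same counts gave an adjusted p of 0.00599 for Irf8. The adjusted p from edgeR was 0.0230 without Veh 3, 0.0259 without the count filter and 0.0495 with the filterByExpr filter. Irf7, which amplifies type I interferon production, was at 14.9, 14.3 and 11.9 CPM in Hcy and 16.5, 18.8 and 20.3 CPM in Veh. Its groups did not overlap either, and Hcy was lower (-0.43 ± 0.13, edgeR adjusted p = 0.163). Irf3, the factor that sensors activate first, was at 52.9, 49.3 and 57.6 CPM in Hcy and 48.9, 47.5 and 48.9 CPM in Veh. All Hcy libraries were higher, by a small margin (0.14 ± 0.08, edgeR adjusted p = 0.52). Stat2, which acts in a complex with Irf9, was at 56.7, 54.9 and 57.1 CPM in Hcy and 56.8, 52.6 and 55.9 CPM in Veh, an overlap (0.03 ± 0.07, edgeR adjusted p = 0.915). Irf1, a factor induced by interferon-γ that drives guanylate-binding protein genes, averaged 26.8 ± 2.82 CPM in Hcy and 20.5 ± 2.72 CPM in Veh (SD, n = 3). All its Hcy libraries were above the Veh libraries (0.39 ± 0.13, edgeR adjusted p = 0.203). Irf2, an antagonist of Irf1, and Irf9 had overlapping groups, with log2 fold changes of 0.09 and -0.25.

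Direct antiviral effectors. This group of 12 held 3 of the 5 genes that passed the adjusted p, all higher in Hcy (25% of the group, against 1.32% of all tested genes). Rsad2 encodes viperin, a radical SAM enzyme that makes a chain-terminating nucleotide. Its levels were 11.5, 10.6 and 11.4 CPM in Hcy and 5.05, 3.89 and 3.46 CPM in Veh. Every Hcy library was far above every Veh library, and Hcy varied little. Rsad2 rose from 4.13 ± 0.82 to 11.2 ± 0.483 CPM (SD, n = 3), which is 1.43 ± 0.17 SE on the log2 scale (edgeR adjusted p = 0.00483). The counts behind this were 158 to 191 per Hcy library and 50 to 85 per Veh library. Ifit1, whose protein binds viral RNA that lacks host cap methylation, was at 5.39, 5.78 and 6.80 CPM in Hcy and 2.26, 1.40 and 2.56 CPM in Veh. The groups were well apart, at a low level. Ifit1 rose from 2.07 ± 0.601 to 5.99 ± 0.732 CPM (SD, n = 3), which is 1.53 ± 0.25 SE on the log2 scale (edgeR adjusted p = 0.0161). It rested on 22 to 38 counts per Veh library and 75 to 114 per Hcy library, and it was no longer called when any 1 of the Hcy libraries or Veh 1 was left out (edgeR adjusted p of 0.0570 to 0.0908).

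Oasl, a relative of the 2′-5′ oligoadenylate synthetases, was at 12.9, 8.40 and 11.2 CPM in Hcy and 5.64, 4.78 and 6.51 CPM in Veh. The groups did not overlap, although the Hcy libraries were spread out. Oasl rose by a log2 fold change of 0.94 ± 0.20 (edgeR adjusted p = 0.0451), from 5.64 ± 0.864 to 10.8 ± 2.26 CPM (SD, n = 3). Leaving out any 1 library other than Veh 3 moved its adjusted p past the threshold (0.0501 to 0.187). Its neighbour and relative Oasl2 was at 6.32, 8.73 and 8.30 CPM in Hcy and 3.38, 4.78 and 4.78 CPM in Veh. Oasl2 showed the same separation of groups and a similar log2 fold change of 0.85 ± 0.20, and was not called (edgeR adjusted p = 0.075). DESeq2 gave it an adjusted p of 0.0152, and edgeR gave 0.0433 without the count filter and 0.0337 without Veh 3. Reads from similar transcripts of one family (Oasl and Oasl2, and likewise the Ifit, Mx and Gbp genes) may be shared, and how the counting treated such reads is not given in the sources used here. Oas1a, a synthetase of the signal molecule that activates RNase L, was at 2.23, 2.22 and 1.85 CPM in Hcy and 3.50, 2.87 and 1.87 CPM in Veh, with overlapping groups (-0.39, edgeR adjusted p = 0.618).

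Ifit2 and Ifit3, relatives of Ifit1 in the set, were far more abundant and had smaller log2 fold changes. Ifit2 was at 192, 203 and 210 CPM in Hcy and 182, 175 and 164 CPM in Veh. All Hcy libraries were above all Veh libraries by a modest step (0.22 ± 0.07, edgeR adjusted p = 0.215). Ifit3, another gene of this family of tetratricopeptide repeat proteins, averaged 90.0 ± 1.62 CPM in Hcy and 75.9 ± 5.19 CPM in Veh (SD, n = 3), again without overlap (0.25 ± 0.08, edgeR adjusted p = 0.176; 0.0233 without Veh 3). Bst2, or tetherin, which holds budding viruses at the cell surface, was at 52.1, 50.4 and 47.1 CPM in Hcy and 38.4, 40.0 and 50.5 CPM in Veh. Veh 3 lay among the Hcy libraries, and Bst2 was not called (0.22 ± 0.11, edgeR adjusted p = 0.468). Without Veh 3 its log2 fold change was 0.35 (edgeR adjusted p = 0.0207). Cmpk2, a mitochondrial nucleotide kinase gene beside Rsad2, had a log2 fold change of 0.53 with overlapping groups. Mx2, a dynamin-like GTPase gene, was at 0.48 and also overlapped. Mx1 had 2 to 11 counts per library, close to the floor of 3 counts (0.178 to 0.215 CPM), and its groups overlapped (0.59 ± 0.66, edgeR adjusted p = 0.785). Eif2ak2, which encodes the kinase PKR, had overlapping groups and a log2 fold change of -0.15. Over the group, 10 of 12 genes had a log2 fold change above 0 (83.3%, against 46.9% of all tested genes). In 6 (Ifit1, Ifit2, Ifit3, Rsad2, Oasl and Oasl2; 50%) every Hcy library was above every Veh library, against 10.8% of all tested genes.

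**Figure D3:**
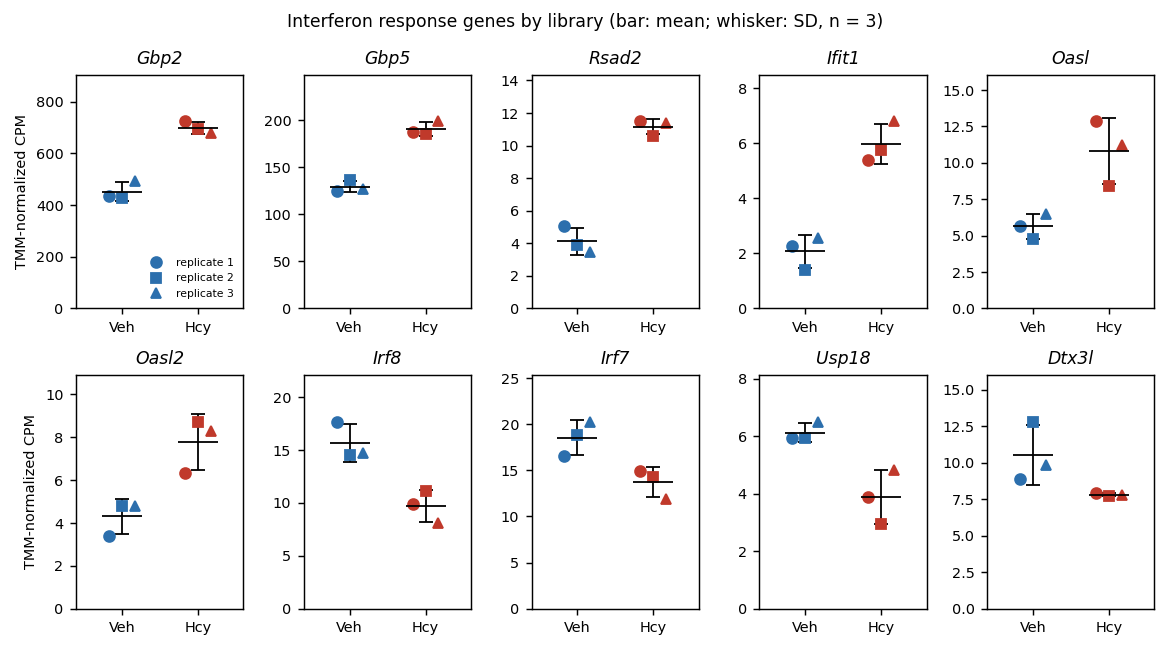
Level in CPM (linear axes from 0) of 10 genes in each Veh and Hcy library, with black bars for the mean ± SD (n = 3). The points of the groups do not overlap in any of the 10, with Hcy above Veh for Gbp2, Gbp5, Rsad2, Ifit1, Oasl and Oasl2 and below it for Irf8, Irf7, Usp18 and Dtx3l. Of all 36 genes, 11 had every Hcy library above Veh and 4 below (41.7% apart, against 20.1% of all tested genes). Ddx58, Irf1, Irf3, Ifit2 and Ifit3, also with Hcy above Veh, are not shown.

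Isg15 and ADP-ribosylation genes. None of these 6 genes was called with edgeR or DESeq2, and 2 (Usp18 and Dtx3l) were lower at an unadjusted p of 0.05 (33.3%, against 5.95% of all tested genes). In none did every Hcy library exceed every Veh library, against 10.8% of all tested genes. Isg15 encodes a ubiquitin-like protein and is among the most strongly interferon-induced genes in many cells. It was at 17.7, 15.0 and 13.1 CPM in Hcy and 10.4, 9.37 and 16.9 CPM in Veh. Veh 3 lay with the Hcy libraries, and the other Veh libraries lay below them (0.32 ± 0.22, edgeR adjusted p = 0.603). Without Veh 3, the log2 fold change of Isg15 was 0.62 (edgeR adjusted p = 0.0379). Usp18, the protease that removes Isg15 and dampens the receptor, went the other way, at 3.88, 2.96 and 4.83 CPM in Hcy and 5.94, 5.93 and 6.51 CPM in Veh. The groups did not overlap, and the Hcy mean was lower (-0.65 ± 0.21, edgeR adjusted p = 0.187). Dtx3l, an E3 ligase that pairs with Parp9, was at 7.90, 7.72 and 7.82 CPM in Hcy and 8.90, 12.8 and 9.83 CPM in Veh. Its Hcy libraries were nearly equal and all below Veh (-0.43 ± 0.16, edgeR adjusted p = 0.277). Parp9 was at 38.3, 38.6 and 39.3 CPM in Hcy and 41.8, 41.2 and 34.5 CPM in Veh, an overlap (-0.02 ± 0.09, edgeR adjusted p = 0.964). Parp14, a mono-ADP-ribosyltransferase gene, and Herc6, which encodes the ligase that attaches Isg15 in mice, also overlapped, with log2 fold changes of 0.03 and 0.07. Parp14 spread widely in Veh, from 49.6 CPM in Veh 3 to 79.4 CPM in Veh 2.

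Guanylate-binding proteins and other induced genes. Both guanylate-binding protein genes of the set rose (2 of the 5 genes of this group, 40%, against 1.32% of all tested genes), while the other 3 genes had overlapping groups. Gbp2 encodes a GTPase that coats intracellular bacteria and the vacuoles of parasites, and it was the most abundant gene of the set by CPM. Its levels were 725, 694 and 680 CPM in Hcy and 434, 427 and 495 CPM in Veh. The lowest Hcy library lay well above the highest Veh library. Gbp2 rose from 452 ± 37.5 to 699.7 ± 22.6 CPM (SD, n = 3), which is 0.63 ± 0.08 SE on the log2 scale (edgeR adjusted p = 0.00483), on 6705 to 11400 counts per library. Gbp5, which promotes inflammasome assembly, was at 187, 185 and 199 CPM in Hcy and 125, 137 and 127 CPM in Veh. The groups were far apart and each was tight. Gbp5 rose by a log2 fold change of 0.56 ± 0.07 (edgeR adjusted p = 0.00698), and without Hcy 3 its adjusted p was 0.0541. Both lay below the fold-change criterion. Ifi27, which encodes a small membrane protein and was the most abundant of the set per length, stood at 342, 314 and 341 CPM in Hcy and 318, 316 and 422 CPM in Veh. Veh 3 was the highest and the rest were alike (-0.08 ± 0.11, edgeR adjusted p = 0.828). Ifi44 and Xaf1, an antagonist of the apoptosis inhibitor XIAP, had log2 fold changes of -0.05 and -0.17.

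**Figure D4:**
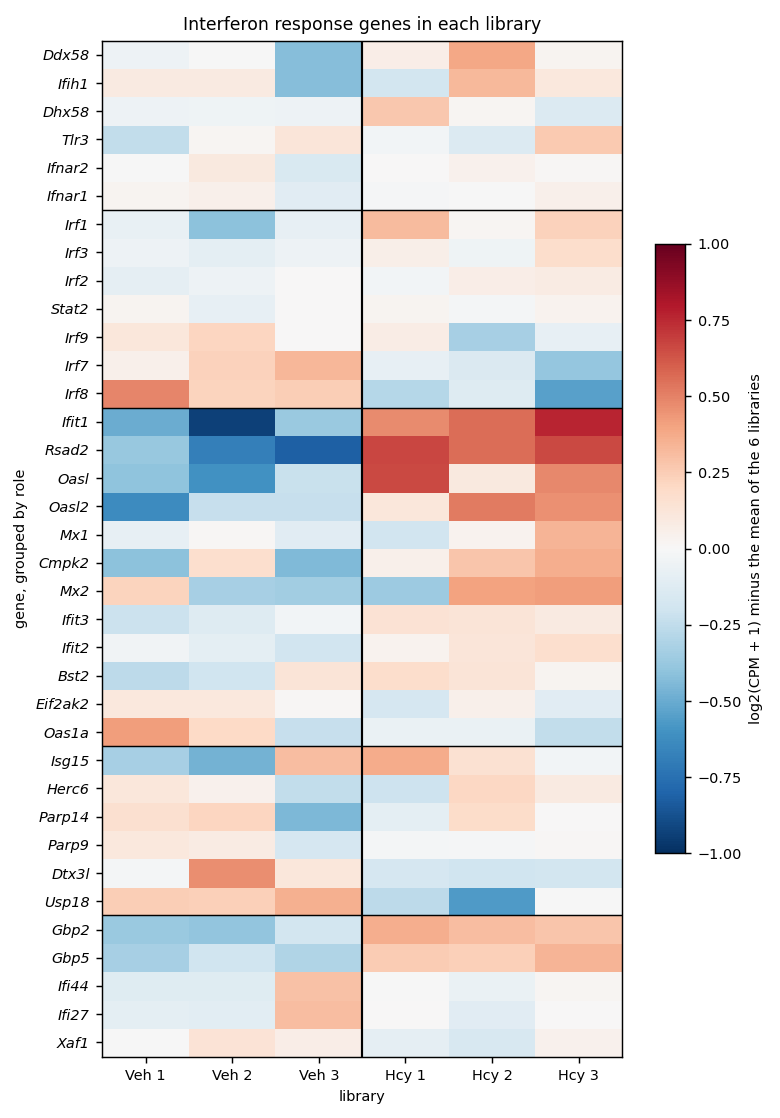
Heat map of the 36 genes by library, as log2(CPM + 1) minus the mean of the 6 libraries, with genes grouped by role. Red is above and blue below a gene's mean, and Rsad2, Ifit1, Gbp2 and Gbp5 are above their means in all 3 Hcy libraries and below them in all 3 Veh libraries.

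Several of the genes lie near each other, and neighbours did not always differ alike. Positions are those listed in the deposited table, which names no build. Its chromosome 1 positions reach 282724300, beyond the end of that chromosome in mRatBN7.2, so they are not to be read in that build. Ifit2, Ifit3 and Ifit1 lie in this order on chromosome 1, with gaps of 5507 and 32720 bases, and their log2 fold changes were 0.22, 0.25 and 1.53. Ifit1bl, a gene of the wider pathway, is listed in the second gap (252914684 to 252922486), with a log2 fold change of -0.03. Ifit1 spans 252944103 to 252946170. Gbp5 (248178389 to 248197160) and Gbp2 (248276709 to 248293784) are 79548 bases apart on chromosome 2, and both rose. Gbp4, a gene of the wider pathway, is listed between them (248249468 to 248263168). Rsad2 (45655954 to 45669148) and Cmpk2 lie head to head on chromosome 6, 14085 bases apart, with 1.43 and 0.53. Oasl (47444104 to 47456894) and Oasl2 are 12703 bases apart on chromosome 12 and gave 0.94 and 0.85. Parp9 and Dtx3l start 1128 bases apart on opposite strands of chromosome 11, with -0.02 and -0.43.

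The wider interferon pathway was read from 108 other names, of which 100 were in the table and 78 could be tested. Of the 78, 6 passed the adjusted p (7.69%, against 2.34% of all tested genes). Hcy was higher in 4 of them and lower in 2, and 1 met the fold criterion too (1.28%, against 0.486%). At an unadjusted p of 0.05, 17 passed (21.8%, against 13.4%), 11 higher (14.1%, against 7.44%) and 6 lower (7.69%, against 5.95%). All 11 interferon ligand genes in the table were below the count filter. Ifnb1, the interferon-β gene, had 0 counts in all 6 libraries, which allows a level of up to 0.178 to 0.215 CPM per library by counting error alone. Poly(A) counts at a single time do not measure the secreted protein.

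Gbp4, a further guanylate-binding protein gene, was at 89.4, 90.5 and 86.8 CPM in Hcy and 55.6, 60.8 and 66.6 CPM in Veh. It rose without overlap of the groups (0.54 ± 0.08, edgeR adjusted p = 0.0135). Apol3, of the apolipoprotein L family, was at 35.5, 34.6 and 36.9 CPM in Hcy and 22.6, 20.3 and 25.8 CPM in Veh. It rose as well (0.64 ± 0.11, edgeR adjusted p = 0.0161). Cxcl10, a chemokine that draws T cells, was at 25.9, 25.2 and 26.7 CPM in Hcy and 15.8, 15.8 and 18.8 CPM in Veh. Its Hcy libraries were close together and all above Veh, and it rose by 0.63 ± 0.11 (edgeR adjusted p = 0.0196). Slfn13, a transfer RNA nuclease gene, was at 28.4, 33.0 and 32.0 CPM in Hcy and 21.3, 24.1 and 19.3 CPM in Veh. Its groups did not overlap, and it rose by 0.53 ± 0.11 (edgeR adjusted p = 0.0491). The genes that fell were Ifitm10, a member of the interferon-induced transmembrane family by sequence, and Tdrd7, an inhibitor of autophagy-dependent viral replication. Ifitm10 was at 3.16, 2.69 and 2.51 CPM in Hcy and 6.29, 6.05 and 7.82 CPM in Veh. It was the pathway gene past both criteria (-1.27 ± 0.19, edgeR adjusted p = 0.0129). Tdrd7 was at 95.2, 101 and 97.8 CPM in Hcy and 140, 137 and 121 CPM in Veh (-0.44 ± 0.08, edgeR adjusted p = 0.0247). Both had every Hcy library below every Veh library. Gbp4, Apol3, Cxcl10, Slfn13 and Tdrd7 each passed in only 1 of the 6 fits that left out 1 library, the fit without Veh 3, and Ifitm10 passed in the 3 that left out a Veh library (edgeR adjusted p of up to 0.224 over these 6 genes).

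Signalling genes of the receptor and sensor pathways were read as well. The groups overlapped for the kinase genes Jak1 (-0.04) and Tyk2 (0.01), for Mavs (0.04), the adaptor of the RNA sensors, and for Cgas (-0.15) and Sting1 (0.42), the sensor of cytosolic DNA and its adaptor. None of these 5 was called (edgeR adjusted p of 0.468 to 0.989).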

How the data were processed

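RNA was measured by paired-end poly(A) sequencing in 6 rBMEC libraries, 3 Hcy and 3 Veh, grouped by their titles. Gene counts were deposited by the authors as whole, unnormalised numbers. The submitters' processing notes name fastp, HISAT2 2.2.1, StringTie 2.2.3, Cufflinks, featureCounts 2.0.6 and DESeq2 1.42.0 and the builds mRatBN7.2 and rn7, and the strand setting of the counting is not given in the sources used here. A second deposited table holds the authors' normalised values, fold changes and p-values and was not used.

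Genes with at least 10 counts over the 6 libraries (14603 of 33566) were fitted together with edgeR 4.0.16 in R 4.3.3 (quasi-likelihood test, TMM scaling, Benjamini-Hochberg adjustment). A gene was called at an adjusted p of 0.05 or less and an absolute log2 fold change of 1 or more, the study's criteria. CPM used TMM-scaled totals, and SE is the log2 fold change divided by the root of the F statistic. The fit was tested on simulated data with 200 changed genes. Deviations of same-numbered libraries correlated at r = -0.01, 0.24 and 0.06, and those of differently numbered ones at -0.24 to 0.19. With 3 libraries per group, these values cannot show whether libraries shared an isolation. No pairing was used in the main fit. Alternatives were DESeq2 1.42.0, other scalings and filters, a replicate block and leaving out each library. The 36 genes, their role groups and the pathway and marker lists were chosen with earlier results of these data known. Values in every library are given for genes at an adjusted p of 0.05 or less and, in each role group, for the 2 with the smallest p and the 2 highest per kilobase, and for pathway genes at that adjusted p. A few fixed pathway names, of which 1 is not reported here, are given whatever their p, by log2 fold change. Oasl2 and Oas1a, outside this rule, were added beside Oasl after their values were seen, and other genes are described by means or by a range. Promoters are from RefSeq (GRCr8), so their coordinates differ from the positions in the count table.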

Additional observations from a re-analysis of the deposited data

How the results depend on the processing

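Among the 36 genes 2 were called, and DESeq2, the other scalings and filters and the replicate block each also gave 2. Leaving out 1 library gave 1 to 3, with Rsad2 called each time, and the adjusted p alone gave 5 and the unadjusted p alone 13. Over all genes 71 were called, 109 without a count filter, 39 to 112 with 1 library left out (112 without Veh 3), 341 at the adjusted p alone, 374 at an unadjusted p with the fold criterion and 1955 without it. The replicate block gave 82. For the wider pathway 1 was called, 0 to 1 with 1 library left out, and 6, 2 and 17 under those same rules in turn. Without Veh 3, 10 of the 36 genes passed the adjusted p (957 of all genes, 6.67%), adding Bst2, Ifit3, Irf8, Isg15 and Oasl2. The other single omissions gave 2 to 4, against 0.557% to 1.05% of all genes. Rsad2 and Gbp2 passed the adjusted p in all 12 alternatives with a test of their own, Gbp5 in 11, Ifit1 in 8, Oasl in 7 and Irf8 and Oasl2 in 4 each, the replicate block among them for Oasl2 (adjusted p = 0.0484, edgeR). Of the pathway genes, Ifitm10 passed in 9, Gbp4, Apol3, Cxcl10 and Tdrd7 in 7 each and Slfn13 in 6. The cause of these shifts was not tested. The genes that changed sign did so only when a library was left out, with log2 fold changes from -0.022 to 0.055 for Ifnar1, -0.034 to 0.093 for Ifnar2, -0.061 to 0.17 for Tlr3, -0.014 to 0.23 for Dhx58, -0.0053 to 0.052 for Stat2, -0.075 to 0.95 for Mx1, -0.037 to 0.18 for Herc6, -0.10 to 0.034 for Parp9, -0.16 to 0.15 for Parp14, -0.16 to 0.066 for Ifi27, -0.13 to 0.12 for Ifi44, -0.12 to 0.0016 for Jak1, -0.077 to 0.052 for Tyk2, -0.29 to 0.086 for Cgas and -0.043 to 0.13 for Mavs. A prior count of 2 was run for log2 fold changes alone. Depth limits Mx1 most, at 2 to 11 counts per library.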

Other observations

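Other receptor genes of the wider pathway, chosen after their values were seen, stood as follows. Ifngr1, the ligand-binding chain of the interferon-γ receptor, was at 956, 873 and 934 CPM in Hcy and 831, 804 and 857 CPM in Veh, without overlap (log2 fold change 0.15, edgeR adjusted p = 0.364). Ifnlr1, a chain of the interferon-λ receptor, was at 3.38, 3.02 and 3.04 CPM in Hcy and 2.14, 1.40 and 2.35 CPM in Veh, also without overlap (0.68, edgeR adjusted p = 0.266). The other receptor chains of the list, Ifngr2 (log2 fold change 0.13) and Il10rb (-0.06), had overlapping groups. None of these 4 passed the threshold. Among the ligands, the interferon-ε gene Ifne had 3 counts in total and the interferon-γ gene Ifng had 2.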
